A study of Mus musculus with 3 samples.

Results

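Collagen chains were followed as a gene family in single-cell RNA-seq of mouse gliomas. All genes of the count table whose symbol is Col, a type number, the letter a and a chain number were taken, which gave 44 of 50262 genes. Of these chains, 43 had at least 1 UMI (unique molecular identifier, which marks 1 captured mRNA molecule) in the cells analysed, and 33 had at least 100. Counts of a chain are given as CPM, its UMIs for each 1000000 UMIs of the same cells. UMIs were read from the 3' end of transcripts, so no correction for gene length was made, and levels of different chains are set side by side only as captured molecules.

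The mice carried, among other alleles, a conditional human EGFR transgene, Cdkn2A-/- and a conditional luciferase reporter, on a mixed background, and tumors were started by injecting a Cre lentivirus into the brain of adult animals. All samples share this genotype, in which Cdkn2A is absent from every cell of the animal and the Cre virus can also reach cells that are not tumor cells. The brains were digested with collagenase and viable cells were divided by flow sorting for CD45, a surface protein of leukocytes, into CD45+ and CD45- cells from early, medium and late (large) tumors. There was 1 tumor sample for each stage, the early one pooled from more than 1 mouse, and these 3 samples were sequenced as 24 libraries in 3 runs. The text of the study does not say whether the medium one was pooled as well. Normal brain was not analysed here.

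Collagens are extracellular proteins in which 3 chains wind into a triple helix, and each collagen type is built from its own set of chains, in some types in more than 1 combination. Fibrillar collagens (types I, II, III, V, XI, XXIV and XXVII) form the fibers of connective tissue, type IV forms the sheet of basement membranes, and the multiplexins (types XV and XVIII) lie next to that sheet. Fibril-associated collagens decorate fibers, type VI forms beaded filaments, types VIII and X form networks, and a further group spans the cell membrane. Normal brain tissue holds little fibrillar collagen, which is found mainly in the meninges and around larger vessels, whereas basement membrane collagen lines all brain vessels.

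The 11 fibrillar chains had 19960 UMIs in CD45- and 4239 in CD45+ cells. The 6 basement membrane chains had 9250 and 2261, the 9 fibril-associated chains 5864 and 677, the 6 beaded filament chains 3839 and 1405, and the 2 multiplexins 3540 and 731. Network chains (3 genes) had 2149 and 351 UMIs, transmembrane chains (4 genes) 685 and 87, type XXVI and XXVIII chains 182 and 107, and the anchoring fibril chain Col7a1 had 22 and 2. Fibrillar chains thus held the most molecules in both sorts, but in CD45+ cells this rank rested on Col27a1. That chain had 2377 of the 4239 fibrillar UMIs there, and Col4a3 had 1370 of the 2261 basement membrane UMIs. Col6a4 had 0 UMIs in the cells analysed and Col24a1 had 3. Of the 44 chains, 9 stayed below the count filter of the comparison between sorts, namely Col4a6, Col6a4, Col6a5, Col6a6, Col7a1, Col10a1, Col17a1, Col24a1 and Col28a1.

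The CD45- samples held 2723, 1603 and 2259 cells with 8086154, 6567175 and 10535252 UMIs in the early, medium and late tumor, and the CD45+ samples 5092, 3973 and 2105 cells with 10814467, 9695543 and 5366987 UMIs. Ptprc, the gene of CD45, lay between 228 and 249 CPM in the CD45+ and between 3.61 and 16.0 in the CD45- samples, so both sorts matched their label. Human EGFR had 7.30, 704 and 1223 CPM in CD45- cells of the early, medium and late sample, against 1.85, 271 and 85.0 in CD45+ cells, so tumor cells were nearly missing from the early sample and present in the CD45+ sort of the medium one. Of 15828 cell barcodes, 1655 occurred in more than 1 library, 566 of them within 1 run.

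Collagen chains were compared between the sorts first, to ask whether tumor and stromal cells or leukocytes carried them. Together the chains made up 677, 1639 and 2776 CPM in CD45- cells of the early, medium and late sample, against 333, 353 and 528 in CD45+ cells. At least 1 collagen UMI was found in 44.7%, 61.6% and 72.7% of CD45- cells and in 39.9%, 29.3% and 44.2% of CD45+ cells. The CD45- values were higher in each of the 3 tumor samples, and the ranges did not overlap for CPM. Sums over a sort do not tell fewer cells of a type from less RNA per cell. The CD45+ sums were not all of cells with leukocyte markers. The 168 CD45+ cells with at least 2 human EGFR UMIs and no myeloid or lymphoid class had 103 of the 168 Col11a1, 240 of the 540 Col4a1, 130 of the 288 Col5a2, 111 of the 296 Col18a1 and 44 of the 357 Col1a2 UMIs of the CD45+ sort.

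Of the 35 chains that passed the count filter, 26 had lower and 2 had higher levels in the CD45+ sort (edgeR quasi-likelihood test with tumor sample as a block, Benjamini-Hochberg adjusted p below 0.05). Of all 18428 genes tested, 20.4% were higher and 25.7% lower. The median log2 fold change of the 35 chains was -2.81, and that of all genes -0.036. Lower chains made up 9 of 10 fibrillar, 4 of 5 basement membrane, 5 of 9 fibril-associated, 2 of 3 beaded filament, 1 of 2 multiplexin, 2 of 2 network and 3 of 3 transmembrane chains tested. Without scaling factors the median of all genes moved to -0.401, and 1 chain was higher and 28 lower. No share of all genes is given for that fit.

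Among the fibrillar chains, Col1a2 (ENSMUSG00000029661, GRCm38 chromosome 6, 4504814 to 4541544), a chain of type I collagen, had 112, 216 and 164 CPM in CD45- cells of the early, medium and late sample, against 5.64, 21.1 and 17 in CD45+ cells. All 3 CD45- values lay above all CD45+ values. On the log2 scale the CD45+ level fell by 3.26 (SE 0.29, adjusted p 0.000177). Its partner Col1a1 (ENSMUSG00000001506, chromosome 11, 94936224 to 94953042) had 41.7, 98.5 and 85.0 against 19.97, 22.7 and 24 CPM. This was the smallest difference among the fibrillar chains that were lower, with a log2 fold change of -1.30 (SE 0.24, adjusted p 0.00353). Col3a1 (ENSMUSG00000026043, chromosome 1, 45311538 to 45349706), the only chain of type III collagen, had 23.3, 114 and 177 CPM in CD45- and 1.66, 13.5 and 20.1 in CD45+ cells (log2 fold change -2.91, SE 0.24, adjusted p 0.000147). Its ranges did not overlap either.

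Col11a1 (ENSMUSG00000027966, chromosome 3, 114030540 to 114220718), a minor fibrillar chain best known from cartilage, had 6.18, 103 and 344 CPM in CD45- cells and 0.277, 9.18 and 14.2 in CD45+ cells. Col5a2 (ENSMUSG00000026042, chromosome 1, 45374321 to 45503282), a chain of type V collagen that takes part in fibril assembly, had 9.77, 62.7 and 294 against 0.555, 11.8 and 31.3. The early CD45- value of both lay below the late CD45+ value, so the ranges overlapped although each pair had the same direction. Log2 fold changes were -3.71 (SE 0.32, adjusted p 0.000164) for Col11a1 and -2.70 (SE 0.33, adjusted p 0.000689) for Col5a2.

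The basement membrane chains Col4a1 (ENSMUSG00000031502, chromosome 8, 11198423 to 11312826) and Col4a2 (ENSMUSG00000031503, chromosome 8, 11312805 to 11449287) are encoded head to head on opposite strands and assemble with each other. Col4a1 had the most CD45- UMIs of all chains, with 40.3, 148 and 301 CPM in CD45- cells of the early, medium and late sample, against 2.59, 28.6 and 43.8 in CD45+ cells. Col4a2 had 33.3, 102 and 198 against 1.76, 15.6 and 27.0. The CD45+ level was lower for both, by log2 fold changes of -2.59 (SE 0.34, adjusted p 0.000973) and -2.81 (SE 0.34, adjusted p 0.000635), and the ranges of Col4a1 overlapped across stages. The multiplexin Col18a1 (ENSMUSG00000001435, chromosome 10, 77052178 to 77166548), whose C-terminal fragment is endostatin, had 9.52, 76.8 and 239 against 2.22, 18.3 and 17.7 (log2 fold change -2.31, SE 0.39, adjusted p 0.00325). Its ranges overlapped as well, the early CD45- value lying below the medium and late CD45+ values.

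Col16a1 (ENSMUSG00000040690, chromosome 4, 130047840 to 130099283), a fibril-associated chain, had 5.56, 50.4 and 177 CPM in CD45- and 0.185, 8.04 and 13.2 in CD45+ cells. The early CD45- value of Col16a1 lay below its medium and late CD45+ values, so these ranges overlapped. Col6a1 (ENSMUSG00000001119, chromosome 10, 76708792 to 76726168) of the beaded filaments had 24.7, 48.7 and 115 against 1.66, 5.26 and 9.50. Levels in the CD45+ sort were lower for both chains (log2 fold changes of -3.01 and -3.17, adjusted p-values of 0.000731 and 0.000125). Col9a3 (ENSMUSG00000027570, chromosome 2, 180597790 to 180622189), a chain of the fibril-associated type IX, was level across the stages in CD45- cells at 61.0, 72.6 and 67.6, against 1.39, 5.78 and 4.84 in CD45+ cells (log2 fold change -3.85, adjusted p 0.000434). Col8a1 (ENSMUSG00000068196, chromosome 16, 57624258 to 57754737), a network chain, had 35.1, 90.2 and 66.3 against 8.60, 15.0 and 15.1 (log2 fold change -1.89, adjusted p 0.000365). Of the chains named so far, Col4a1, Col4a2, Col5a2, Col11a1, Col16a1 and Col18a1 passed no threshold when the tumor sample was left out as a block, and 18 chains were then lower. With all 198 CD45+ cells of at least 2 human EGFR UMIs left out, a fit chosen after seeing the data, 27 chains were lower, and the log2 fold changes were -6.20 for Col11a1, -4.86 for Col16a1, -3.71 for Col5a2, -3.44 for Col4a1, -3.66 for Col4a2 and -3.09 for Col18a1. No share of all genes is given for either fit, so the counts of 18 and 27 have no background to be read against.

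Against this direction, Col27a1 (ENSMUSG00000045672, chromosome 4, 63214004 to 63334991), a fibrillar chain known from cartilage, had 148, 33.6 and 84.6 CPM in CD45+ cells of the early, medium and late sample, against 19.4, 31.4 and 29.4 in CD45- cells. It was higher in CD45+ cells in 3 of 3 tumor samples, although the medium values were close, with a log2 fold change of 1.89 (SE 0.49, adjusted p 0.0192). With every gene of at least 1 UMI kept, its adjusted p was 0.110. Col6a3 (ENSMUSG00000048126, chromosome 1, 90765923 to 90843971), the long chain of type VI collagen, had 49.6, 30.0 and 67.6 CPM in CD45+ and 8.53, 35.6 and 25.1 in CD45- cells. It was higher in 2 of 3 tumor samples, with a log2 fold change of 1.59 (SE 0.48, adjusted p 0.0334), and its adjusted p rose to 0.0873 without scaling factors, to 0.116 without the early and to 0.0906 without the late tumor sample. The 7 chains that passed no threshold were Col4a3, Col14a1, Col15a1, Col19a1, Col20a1, Col22a1 and Col26a1. Col15a1, the other multiplexin, had 5.44, 21.9 and 24.5 CPM in CD45- and 20.2, 12.6 and 17.7 in CD45+ cells.

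**Figure D1:**
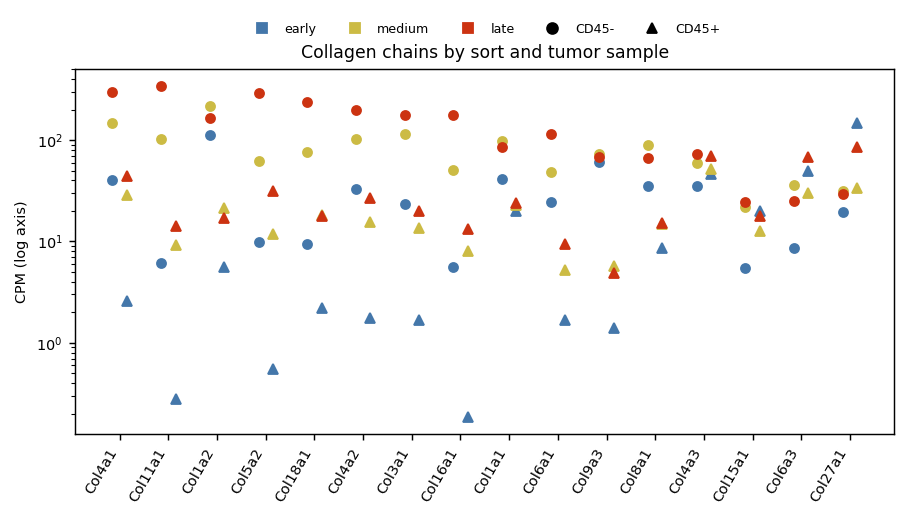
CPM on a log axis for the 12 chains with most UMIs in CD45- cells and for Col4a3, Col15a1, Col6a3 and Col27a1, with circles for CD45- and triangles for CD45+ cells and a color for each tumor sample. The circles of the first 12 chains lie above the triangles of the same color. The opposite order is shown by Col27a1, by the early and late samples of Col6a3 and by the early samples of Col4a3 and Col15a1.

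Cells were then given classes by marker genes, none of which was a collagen, to ask which cells of each sort held which chain. Tumor cells were CD45- cells with at least 2 human EGFR UMIs that met the rule of no fibroblast, endothelial, mural, choroid plexus, myeloid or lymphoid class, and were divided into a Pdgfra-type (more Pdgfra than Lgals1 UMIs) and an Lgals1-type (the reverse). Pdgfra is a receptor of oligodendrocyte progenitors and Lgals1 encodes galectin-1. Lgals1-type cells held 40.4% of the collagen UMIs of the CD45- sort while being 6.21% of its cells, and fibroblast-like cells held 10.8% while being 1.61%. Pdgfra-type cells held 8.02% from 6.44% of cells, and tumor cells with equal counts of both genes 8.91% from 4.74%. Oligodendrocyte-like cells were the most numerous class, at 41.7% of cells, and held 3.99%. Endothelial-like cells held 2.44% from 5.44%, mural-like cells 2.62% from 1.25% and choroid plexus-like cells 3.82% from 5.33%. Shares of UMIs and of cells are not levels, since depth differed between classes. Median UMIs per cell were 8019 in Lgals1-type, 6232 in Pdgfra-type, 2487 in oligodendrocyte-like and 1432 in endothelial-like cells. Pdgfra-type cells thus held 2859177 of the 25188581 UMIs of all genes in the sort.

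Fibroblast-like cells had collagen chains at 7284, 14660 and 14840 CPM across the early, medium and late tumor sample. Mural-like cells (the contractile cells of the vessel wall) had 2785, 4119 and 15580, endothelial-like cells 1024, 1440 and 3255 and choroid plexus-like cells 678, 1035 and 1097. Lgals1-type tumor cells had 3808 and 5123 in the medium and late sample, and Pdgfra-type cells 1142 and 1350. Oligodendrocyte-like cells lay between 195 and 271. In the CD45+ sort, microglia-like cells lay between 253 and 376, other myeloid-like cells between 149 and 379 and lymphoid-like cells between 63.3 and 98.4. Lymphocytes are not known to make collagen, so their level was taken as background.

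The 475 lymphoid-like cells had 102 collagen UMIs, of which 48 were Col4a3 (ENSMUSG00000079465, chromosome 1, 82586921 to 82722059), a basement membrane chain best known from the kidney. Col4a3 had 46.5, 45.8 and 25.3 CPM in early, medium and late lymphoid-like cells, 44.3, 51.6 and 71.2 in microglia-like cells and 35.9, 45.3 and 108 in fibroblast-like cells, the latter from 24 UMIs in all. Pooled over the samples, its exact 95% Poisson interval lay above that of lymphoid-like cells, which ended at 57.2 CPM, in neuron-like cells and in both tumor types. In the other classes it was not read as expression. Each of the other chains had at most 18 UMIs in lymphoid-like cells, the most being Col8a1.

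**Figure D2:**
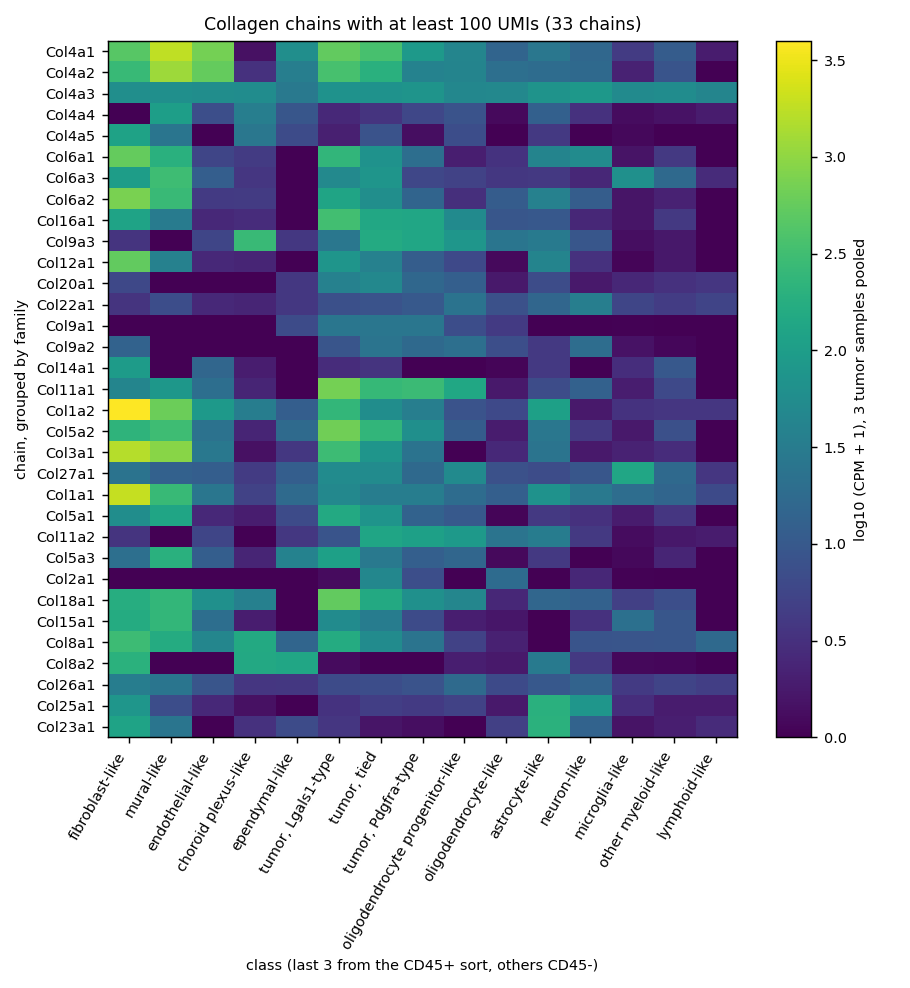
Log10 of CPM plus 1, with the 3 tumor samples pooled, for the 33 chains with at least 100 UMIs (vertical axis, grouped by family) in 15 classes of cells (horizontal axis). The type I and III chains are brightest in fibroblast-like cells at up to 3914 CPM for Col1a2, Col4a1 and Col4a2 in mural-like cells at 1790 and 1192, and Col27a1 in microglia-like cells at 136.

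The chains for which each class was highest followed the families in part. Pooled over stages, fibroblast-like cells had the highest level of Col1a1, Col1a2, Col3a1, Col4a5, Col6a1, Col6a2, Col8a1, Col8a2, Col12a1, Col13a1 and Col14a1. Mural-like cells had the highest level of Col4a1, Col4a2, Col5a3, Col6a3 and Col15a1, but for Col6a3 and Col15a1 this rested on the 18 late cells, early mural-like cells having 0 UMIs of both and medium ones less than Lgals1-type (Col6a3) or fibroblast-like cells (Col15a1). Lgals1-type tumor cells had the highest level of Col5a1, Col5a2, Col11a1, Col16a1 and Col18a1, with 153, 653, 713, 325 and 541 CPM. Choroid plexus-like cells were highest for Col9a3 (277 CPM) and microglia-like cells for Col27a1 (136). These orders were not tested, and several turned within a sample. In the late sample the 18 mural-like cells were above fibroblast-like cells in Col3a1 (2465 against 1882 CPM) and Col8a1 (398 against 252) and above Lgals1-type cells in Col5a1 (322 against 156) and Col5a2 (872 against 708). In the medium sample fibroblast-like cells were above Lgals1-type cells in Col18a1 (298 against 260), ependymal-like cells above fibroblast-like cells in Col8a2 (306 against 149), and tumor cells with equal Pdgfra and Lgals1 counts above microglia-like cells in Col27a1 (102.5 against 67.6). The Lgals1-type ranks say nothing of the early sample, which held 1 such cell.

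The Lgals1-type and Pdgfra-type tumor cells were compared in the medium and late tumor samples, since the early one held 1 and 0 such cells. There were 64 and 344 Lgals1-type and 134 and 290 Pdgfra-type cells, with median UMIs per cell of 7881.5 and 8124.5 against 7296.5 and 5678. Of 34 chains tested, 14 were higher and 2 lower in Lgals1-type cells, while of all 13960 genes tested 4.07% were higher and 4.45% lower. The median log2 fold change of the chains was 1.70, and that of all genes -0.01. Higher chains were 5 of 9 fibrillar, 2 of 5 basement membrane, 3 of 4 beaded filament, 2 of 2 multiplexin, 1 of 2 network and 1 of 8 fibril-associated chains.

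The largest rise was that of Col6a3, with 146 and 30.7 CPM in medium and late Lgals1-type cells against 6.93 and 3.79 in Pdgfra-type cells (log2 fold change 4.19, SE 0.96, adjusted p 0.00427). Col3a1 had 199 and 304 against 7.92 and 30.3 (4.01, SE 0.87, adjusted p 0.00329). The type V chains Col5a3 (111 and 109 against 2.97 and 15.7) and Col5a1 (132 and 156 against 10.9 and 13.5) rose by 3.73 (SE 0.69, adjusted p 0.000178) and 3.71 (SE 0.62, adjusted p 3.76e-05) on the log2 scale. For Col3a1, Col5a1, Col5a3 and Col6a3 both Lgals1-type values lay above both Pdgfra-type values. Col6a1 completed the 5 largest rises, with 130 and 251 against 5.94 and 26.0 (3.73, SE 0.86, adjusted p 0.00491).

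The other chains that rose were Col1a2, Col4a1, Col4a2, Col5a2, Col6a2, Col8a1, Col12a1, Col15a1 and Col18a1, with log2 fold changes from 2.71 to 3.68. Col4a1 had 383 and 568 CPM in medium and late Lgals1-type cells against 39.6 and 108 in Pdgfra-type cells. Col4a2 had 223 and 381 against 18.8 and 49.2, and Col18a1 260 and 592 against 74.3 and 58.4. Col5a2 had 346 and 708 against 43.6 and 71.9, and Col1a2 415 and 213 against 31.7 and 34.1. In each of these 5 chains the groups did not overlap. Of the 2 chains of type I collagen, Col1a1 did not follow Col1a2, with 31.6 and 49.98 against 43.6 and 26.0 CPM, a log2 fold change of 0.33 that passed no threshold and turned to -0.38 without the late sample.

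Col11a2 (ENSMUSG00000024330, chromosome 17, 34039437 to 34066685) and Col9a3 were lower in Lgals1-type cells. Col11a2, which assembles with Col11a1 in cartilage, had 19.3 and 5.38 CPM in medium and late Lgals1-type cells and 127 and 102 in Pdgfra-type cells (log2 fold change -3.39, SE 0.64, adjusted p 0.000216). Col9a3 had 33.4 and 24.7 against 149 and 124 (-2.12, SE 0.45, adjusted p 0.00103). Both genes were also found in oligodendrocyte progenitor-like cells without the human EGFR cut, where Col11a2 had 75.8, 71.9 and 117 CPM across the early, medium and late sample. Col11a1, by contrast, was abundant in both tumor types, with 371 and 776 in Lgals1-type and 233 and 309 in Pdgfra-type cells. Its log2 fold change of 1.11 (SE 0.69) had an adjusted p of 0.438. With only the 2 tumor types in the fit, Col11a1 (1.19, adjusted p 0.00443) and Col16a1 (1.19, adjusted p 0.00441) passed the threshold. Of all Col11a1 and Col11a2 UMIs, Col11a2 made up 1.04% (exact 95% interval 0.692 to 1.50) in Lgals1-type and 28.1% (25.5 to 30.9) in Pdgfra-type cells. By sample it was 4.96% (2.50 to 8.69) and 0.688% (0.401 to 1.10) in medium and late Lgals1-type cells, and 35.3% and 24.7% in Pdgfra-type cells, lower in Lgals1-type cells of both samples. The late sample gave 2471 of the 2693 UMIs behind the pooled Lgals1-type share.

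**Figure D3:**
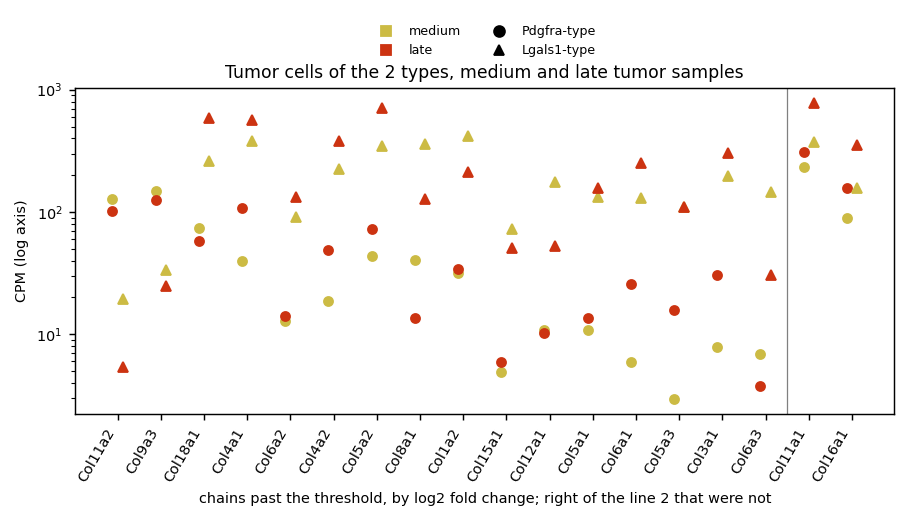
CPM on a log axis in Pdgfra-type (circles) and Lgals1-type (triangles) tumor cells of the medium and late tumor samples, for the 16 chains past the threshold in order of their log2 fold change and, right of the line, Col11a1 and Col16a1, which were not past it with all classes in the fit. Triangles lie below circles for Col11a2 and Col9a3 and above them for the other 14 chains past the threshold.

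The 250 bases before the annotated start of these contrasting chains are shown because the chains moved apart, Col3a1 and Col6a3 being higher and Col11a2 lower in Lgals1-type cells, with Col11a1 present in both. Sequences are those of RefSeq on GRCm38.p6, and none overlaps an annotated exon. Capitals mark 3 short motifs searched on both strands, CCAAT, the GC box GGGCGG and TATAAA.
Col3a1, chr1:45311288-45311537, plus strand: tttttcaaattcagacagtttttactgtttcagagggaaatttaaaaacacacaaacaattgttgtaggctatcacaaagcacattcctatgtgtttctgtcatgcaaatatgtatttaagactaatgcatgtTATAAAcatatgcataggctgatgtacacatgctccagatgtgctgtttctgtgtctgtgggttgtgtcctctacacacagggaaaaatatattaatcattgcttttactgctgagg
Col6a3, chr1:90843972-90844221, minus strand: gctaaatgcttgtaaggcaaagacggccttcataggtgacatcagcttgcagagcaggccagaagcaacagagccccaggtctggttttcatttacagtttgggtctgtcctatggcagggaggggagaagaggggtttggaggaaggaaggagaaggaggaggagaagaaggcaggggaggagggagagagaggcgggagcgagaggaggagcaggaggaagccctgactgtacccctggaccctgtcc
Col11a1, chr3:114030290-114030539, plus strand: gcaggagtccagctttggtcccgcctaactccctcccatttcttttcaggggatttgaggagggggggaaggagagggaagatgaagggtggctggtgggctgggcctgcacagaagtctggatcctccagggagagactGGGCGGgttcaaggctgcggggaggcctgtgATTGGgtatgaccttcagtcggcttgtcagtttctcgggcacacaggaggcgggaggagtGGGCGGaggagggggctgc
Col11a2, chr17:34038888-34039137, plus strand: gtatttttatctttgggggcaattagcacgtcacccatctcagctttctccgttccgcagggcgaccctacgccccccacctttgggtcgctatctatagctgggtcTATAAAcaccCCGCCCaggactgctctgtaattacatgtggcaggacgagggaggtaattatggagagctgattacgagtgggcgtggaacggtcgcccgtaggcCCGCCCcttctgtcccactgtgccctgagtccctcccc

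Counted back from the RefSeq start, with -1 as the base before it, the first base of TATAAA lay at -117 before Col3a1 and at -143 before Col11a2. The Col11a2 window ends at 34039137, before the gene start of 34039437 given above, which comes from another annotation. GC boxes began at -133 and -38 before Col11a2 and at -110 and -19 before Col11a1, which also had CCAAT at -79. The Col6a3 window held none of the 3 motifs. RefSeq windows were found for 35 of the 44 chains, 38 windows in all. CCAAT was in 34.2% of them and in 33.9% of all 32851 promoter windows, GGGCGG in 57.9% against 32.7%, and TATAAA in 13.2% against 12.4%. A match only says that the letters are present.

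The groups of tumor cells differed in more than these genes. Of the late Lgals1-type cells, 330 of 344 lay in a cluster led by Itga8, Thbs2 and Tinagl1, and of the medium ones 51 of 64 in another, led by Apobec3 and Gfra3, while 118 of 134 and 265 of 290 Pdgfra-type cells shared a cluster of oligodendrocyte progenitor markers. The fibroblast marker list had 66.1 CPM in Lgals1-type, 14.3 in Pdgfra-type and 10640 in fibroblast-like cells, with a median of 0, 0 and 5 markers per cell. The mural list had 9.37, 7.0 and, in mural-like cells, 19830. Cells that met the marker rule of the fibroblast-like or mural-like class were left out of both tumor types, so these low marker levels are in part set by that choice. Without the late tumor sample 7 chains were higher, and neither Col11a2 (adjusted p 0.240) nor Col9a3 (0.203) passed. DESeq2 called 10 and 2, with Col5a2 (adjusted p 0.135) and Col6a1 (0.0558) among those it did not call. Of the chains given above, Col1a2 (0.140), Col3a1 (0.105), Col5a1 (0.0668), Col5a2 (0.0714) and Col18a1 (0.313) were also past no threshold without the late sample, and Col1a2 (0.536), Col4a1 (0.113), Col4a2 (0.250) and Col6a3 (0.0593) without the medium one, each with its direction kept. These fits left 1 sample for each type, which was assumed to vary like the other classes. Without the second run Col1a2 (0.0799) and Col6a1 (0.0538) did not pass. No shares of all genes are given for these other fits, so their counts of chains have no background to be read against.

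Fibroblast-like cells were compared with endothelial-like cells, to see how stromal classes divided the chains. There were 39, 35 and 32 fibroblast-like and 155, 131 and 72 endothelial-like cells in the early, medium and late tumor sample. Of 34 chains tested, 17 were higher in fibroblast-like cells, and 5.56% of all genes were higher and 5.92% lower. The median log2 fold change was 2.97 for the chains and -0.038 for all genes. The count of lower chains was 0 by edgeR, also at an unadjusted p below 0.05, where 21 were higher, and DESeq2 called 17 higher and 0 lower. The shares of all genes are those at the adjusted p by edgeR and do not apply to the unadjusted and DESeq2 counts.

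Type I collagen was the most abundant. Col1a2 had 3024, 4331 and 4449 CPM in early, medium and late fibroblast-like cells, against 4.16, 61.1 and 249 in endothelial-like cells (log2 fold change 5.38, SE 0.80, adjusted p 3.14e-05). Col1a1 had 1027, 1994 and 3044 against 4.16, 8.73 and 79.1 (6.22, SE 0.70, adjusted p 1.69e-07), and Col3a1 539, 2337 and 1882 against 16.7, 26.2 and 42.6 (5.90, SE 0.85, adjusted p 2.47e-05). In all 3 chains every fibroblast-like value lay above every endothelial-like value.

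The largest fitted changes were in chains nearly missing from the endothelial-like cells. Col12a1, a fibril-associated chain, had 445, 473 and 757 CPM against 0, 0 and 6.08 (log2 fold change 8.25, SE 0.99, adjusted p 6.97e-08). Col8a2, which forms the network of the corneal Descemet membrane together with Col8a1, had 165, 149 and 315 against 0 in each sample, at least 42.3-fold higher when the endothelial-like group is set to a floor of 3 counts (adjusted p 1.92e-06). By the same floor the transmembrane chain Col23a1 (50.3, 201 and 99.1 against 0) was at least 25.6-fold, the basement membrane chain Col4a5 (129, 142 and 72.1 against 0) at least 25.1-fold and Col6a5 at least 12.5-fold higher. Col6a5 rested on 0, 19.4 and 189 CPM, the late value from 4 cells, and its adjusted p by DESeq2 was 0.751. The beaded filament chains Col6a2 (467, 861 and 946 against 0, 4.36 and 6.08) and Col6a1 (410, 706 and 540 against 0, 0 and 18.3) had log2 fold changes of 7.79 and 6.88. Col5a1, Col5a2, Col8a1, Col14a1, Col15a1, Col16a1 and Col25a1 were higher as well.

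Chains of the vessel basement membrane showed no such difference. Col4a1 had 108, 771 and 459 CPM in fibroblast-like and 466, 528 and 1272 in endothelial-like cells, and Col4a2 43.1, 499 and 234 against 362, 436 and 1010. Their log2 fold changes of -0.72 and -1.21 passed no threshold, and the values of the classes overlapped.

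Mural-like cells numbered 41, 23 and 18 in the 3 tumor samples, and the cluster that held 81 of these 82 cells carried endothelial markers as well. Compared with endothelial-like cells, 8 of 34 chains were higher (2.53% of all genes were higher and 5.09% lower), with a median log2 fold change of 1.58 against -0.362 for all genes. The count of lower chains was 0 by edgeR, 0 by DESeq2, which called 9 higher, and 1 at an unadjusted p below 0.05, where 18 were higher. Here too the shares of all genes apply only to the counts at the adjusted p by edgeR. The 5 largest rises were those of Col6a2 (5.76, adjusted p 0.00837), Col5a1 (5.67, adjusted p 0.000379), Col6a1 (4.68, adjusted p 0.0305), Col6a3 (4.23, adjusted p 0.0076) and Col3a1 (4.17, adjusted p 0.0038), and Col1a1, Col5a3 and Col15a1 were also higher. The fibroblast marker list moved with them, at 758 CPM in mural-like (a median of 1 marker per cell) against 82.0 in endothelial-like and 10640 in fibroblast-like cells, and its part in these rises was not tested.

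The 18 late mural-like cells dominated these values. Col3a1 had 46.7, 365 and 2465 CPM across the early, medium and late sample, the late value being 130 UMIs in 8 cells. Col6a3 had 0, 85.8 and 872, Col6a2 15.6, 21.5 and 815, Col6a1 31.1, 21.5 and 531 and Col5a1 0, 85.8 and 322. Of the 43 late Col6a2 UMIs, 22 lay in 1 cell. Without the late tumor sample 2 chains were higher, and of the 5 largest none passed (adjusted p from 0.272 to 0.659). Without the first sequencing run 3 were higher and Col5a1 turned to -3.85, and without the second run 4 were higher. By edgeR, Col6a1 also passed no threshold without the early sample (adjusted p 0.0851), without the second run (0.128) and with the top 5% of doublet scores removed (0.108). Col6a2 passed none without the medium sample (0.0865). No shares of all genes are given for the counts of these other fits. Col4a1 had 965, 1330 and 3204 CPM and Col4a2 529, 922 and 2237, above the endothelial-like value of the same sample each time, but neither passed the threshold.

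**Figure D4:**
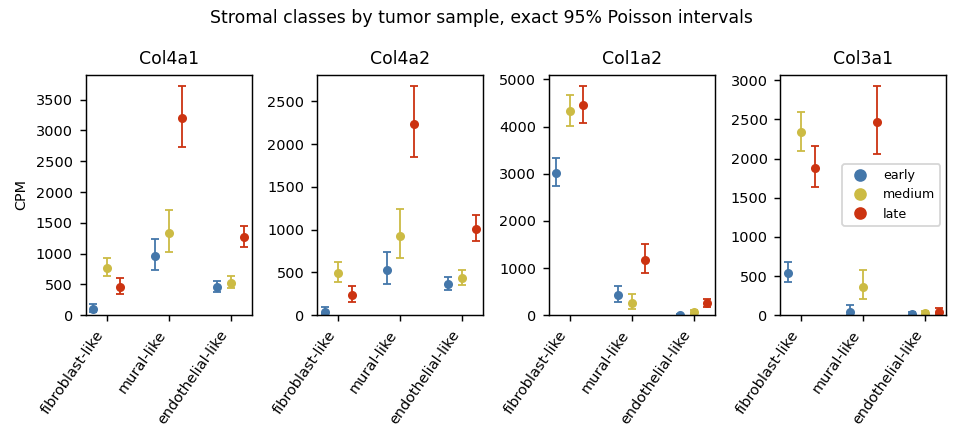
CPM of Col4a1, Col4a2, Col1a2 and Col3a1 in fibroblast-like, mural-like and endothelial-like cells of each tumor sample, with exact 95% Poisson intervals that cover counting error only. Col1a2 reaches 3024 to 4449 in fibroblast-like cells, and the late mural-like value of Col3a1 (2465) stands above its early (46.7) and medium (365) values.

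Pairs of chains that can build 1 collagen were not captured in the same proportion in every class. Col1a1 made up 33.3% (exact 95% interval 31.4 to 35.2) of Col1a1 and Col1a2 UMIs in fibroblast-like and 30.3% (23.0 to 38.5) in mural-like cells, but 16.2% (14.1 to 18.6) in Lgals1-type and 49.2% (41.8 to 56.6) in Pdgfra-type tumor cells. In microglia-like cells it was 88.8% (84.9 to 91.9), from 300 and 38 UMIs. These shares are pooled over the samples and moved with them, Col1a1 making up 25.4%, 31.5% and 40.6% in early, medium and late fibroblast-like cells, 0 of 27 UMIs in early and 39.8% in late mural-like cells, and 7.09% and 19.04% in medium and late Lgals1-type cells, so class and stage are mixed in them. Col4a2 had 44.4% (40.9 to 47.9) of Col4a1 and Col4a2 UMIs in endothelial-like, 39.96% (35.6 to 44.5) in mural-like, 39.8% (38.2 to 41.5) in Lgals1-type and 37.1% (31.5 to 42.9) in fibroblast-like cells. It lay at 31.4% (26.6 to 36.6) in Pdgfra-type and 27.8% (17.9 to 39.6) in microglia-like cells and at 60.1% (53.9 to 66.0) in oligodendrocyte-like cells. Col8a2 made up 40.3% (33.5 to 47.4) of Col8a1 and Col8a2 UMIs in fibroblast-like cells and 48.7% (44.8 to 52.6) in choroid plexus-like cells, but 1 of 612 UMIs in Lgals1-type cells. Intervals cover counting error and not the clustering of UMIs within cells. In Pdgfra-type and microglia-like cells the type I chains were mostly found in different cells. Col1a1 was in 1 of the 20 Pdgfra-type cells with Col1a2 and in 60 of the 404 without it. The microglia-like counts were 4 of 20 and 277 of 7239, and the 177 early Col1a1 UMIs lay in 173 cells. For Lgals1-type cells they were 42 of 156 and 31 of 253.

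Within the Lgals1-type cells, Col4a2 was found in 86.0% of the 343 cells with Col4a1 and in 33 of the 66 without it. Cells with Col4a1 were deeper, with a median of 8787 against 4559 UMIs, and the part of depth in this difference was not tested. Col6a2 was found in 56.2% of cells with Col6a1 and 18.8% of those without (9284 and 6359 UMIs). Col11a2 was found in 2.30% of cells with Col11a1 and 4.76% of those without.

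Some chains lay above the lymphoid-like level in a class where the others of their family did not. That level comes from the CD45+ sort, and free RNA of the CD45- libraries, which held more collagen, has no background share here, so its part in the CD45- values was not tested. For comparison, oligodendrocyte-like cells, the most numerous CD45- class, had Col9a3 at 24.2, Col4a1 at 13.2, Col1a1 at 11.5, Col1a2 at 5.30 and Col6a1 at 2.40 CPM, and Col8a1, Col8a2, Col18a1 and Col25a1 between 0.757 and 1.51 CPM. In choroid plexus-like cells, the epithelium that makes cerebrospinal fluid, Col9a3 had 235, 376 and 357 CPM across the early, medium and late sample and was found in 195 of 351 cells, while Col9a2 had 0 UMIs. The network chains were also present there, Col8a1 with 128, 242 and 170 and Col8a2 with 135, 130 and 227, and Col1a2 had 36.5, 35.6 and 6.67 from 70 UMIs in 27 cells. Ependymal-like cells, which line the ventricles, had Col8a2 at 102, 306 and 41.9 CPM, from 25, 21 and 2 UMIs, and Col4a1 at 57.3, 43.7 and 83.9, from 21 UMIs in all. Col8a1 without Col8a2 was seen in mural-like cells (62.2, 42.9 and 398 CPM from 27 UMIs), in endothelial-like cells (0, 78.5 and 60.8 from 28 UMIs in 5 cells), in medium and late Lgals1-type cells (362 and 128) and in tumor cells with equal Pdgfra and Lgals1 counts (93.6 and 26.9). Col18a1 was the only multiplexin past both limits in Pdgfra-type cells (74.3 and 58.4 in the medium and late sample), in endothelial-like cells (4.16, 21.8 and 207), in oligodendrocyte progenitor-like cells (18.9, 52.5 and 70.9) and in choroid plexus-like cells (25, 58.5 and 63.4).

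Neuron-like cells had Col25a1, a transmembrane chain made by neurons, at 96.7, 0 and 80.6 CPM across the early, medium and late sample. Col6a1 had 48.3, 99.8 and 47.3 there and Col1a1 19.8, 26.6 and 33.4, whereas Col6a3 had 2 and Col1a2 1 UMI. Col6a2 had 14 UMIs there, against 71 of Col6a1. The early astrocyte-like cells reached a collagen level of 1640 CPM, above 402 and 569 in the medium and late ones, but 64 of their UMIs were Col25a1 in 3 cells and 62 were Col23a1 in 4 cells. In oligodendrocyte-like cells Col6a2 had 14.4, 9.19 and 3.49 CPM from 81 UMIs in 27 of 2743 cells. The cartilage chains Col11a2 (22.4, 23.9 and 25.5) and Col2a1 (12.3, 25.3 and 17) were low there, Col2a1 being higher in the medium than in the early sample, and Col11a2 made up 96.9% (93.4 to 98.9) of Col11a1 and Col11a2 UMIs.

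Within the CD45+ sort, myeloid-like cells with at least 3 microglia markers (4290, 1532 and 1437 cells in the early, medium and late sample) were compared with other myeloid-like cells (424, 1604 and 461), to ask which leukocytes held the chains that were not lower in that sort. Median UMIs per cell were 1994 and 1993. Of 34 chains tested, 1 was lower and 0 were higher in other myeloid-like cells by edgeR, while 3.36% of all genes were lower and 4.2% higher. At an unadjusted p below 0.05 7 chains were higher and 3 lower, and DESeq2 called 2 higher and 1 lower. No share of all genes is given for either criterion, so these counts have no background to be read against. The median log2 fold change of the chains was 0.56 and that of all genes -0.051.

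The chain that was lower was Col27a1. It had 170, 67.6 and 115 CPM in early, medium and late microglia-like cells, 40.6, 11.1 and 11.4 in other myeloid-like cells and 5.47, 1.70 and 0 in lymphoid-like cells. The log2 fold change between the myeloid groups was -2.62 (SE 0.57, adjusted p 0.00207), and every microglia-like value lay above every value of the other 2 groups. Its UMIs were spread over many cells, with 1543, 237 and 418 UMIs in 922, 142 and 241 microglia-like cells. By clusters, Col27a1 had 152, 151, 219 and 194 CPM in the 4 myeloid-like clusters with P2ry12, Tmem119, Siglech or Gpr84 among their leading genes, and 22, 14.6 and 30.2 in those led by Cxcl9, by Rnase2a and by Cbr2, a grouping made after seeing the data. The CD45+ libraries of the early sample lay between 113 and 159, those of the medium sample between 23.2 and 40.8 and the 3 late libraries deep enough to be used between 26.5 and 92.6, so libraries of the late sample differed more than those of the others.

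The 250 bases before the RefSeq start of Col27a1, the only chain called by edgeR between the myeloid groups, are given on the same build and with the same capitals. They overlap no annotated exon.
Col27a1, chr4:63215162-63215411, plus strand: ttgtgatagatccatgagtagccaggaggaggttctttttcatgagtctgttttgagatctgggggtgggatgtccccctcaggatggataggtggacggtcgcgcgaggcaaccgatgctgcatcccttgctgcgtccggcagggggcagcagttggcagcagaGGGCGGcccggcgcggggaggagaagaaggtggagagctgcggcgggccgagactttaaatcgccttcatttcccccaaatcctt

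The only match to the 3 motifs was a GC box with its first base at -85. The annotation of the gene used for its coordinates starts earlier than RefSeq, so the window lies between exons of that model.

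Col6a3 had 57.5, 57.6 and 82.2 CPM in microglia-like, 12.1, 11.9 and 31.6 in other myeloid-like and 0, 3.39 and 0 in lymphoid-like cells. The values did not overlap between the myeloid groups, but the adjusted p was 0.0644 (log2 fold change -1.99, SE 0.66). Col6a3 needs the shorter chains Col6a1 and Col6a2 to build type VI collagen, and microglia-like cells had 1023 Col6a3 but 9 Col6a1 UMIs, a share of 99.1% (exact 95% interval 98.4 to 99.6) against 15.4% (11.3 to 20.3) in fibroblast-like cells. The share was also high in other myeloid-like cells, at 84.4% (76.2 to 90.6), and was 61.7% (50.3 to 72.3) in mural-like cells. By sample it was 5.0% (3 of 60 UMIs, 1.04 to 13.9), 13.5% (8.06 to 20.7) and 25.9% (16.8 to 36.9) in early, medium and late fibroblast-like cells and between 98.5% and 99.6% in microglia-like cells. Col15a1 had 23.7, 16.8 and 15.6 CPM in microglia-like and 3.29, 7.66 and 14.1 in other myeloid-like cells (-1.39, adjusted p 0.213). Col14a1, a fibril-associated chain, was the only one of its family above the lymphoid-like level with at least 20 UMIs in other myeloid-like cells. It had 4.39, 10.0 and 8.78 CPM there, from 52 UMIs in 40 of 2489 cells.

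The division by markers was not sharp. Of the 1437 late microglia-like cells, 324 lay in the cluster led by Rnase2a. Of all 2489 other myeloid-like cells, 417 lay in a cluster that was given no class. In the medium sample the largest cluster of microglia-like cells, with 486 of 1532, was the one led by Cxcl9, and by cluster rather than by cell the Col6a3 level was 55.4, 63.1, 64.1 and 82.4 CPM in the first 4 clusters and 44.1, 66.8 and 12.5 in the other 3. For Col6a3 the ranges of these clusters thus overlapped, and for Col27a1 they did not. The cycling myeloid-like cluster, led by Cdca2 and Ccnb2, was in neither group and had 53.7 CPM of Col6a3 and 45.1 of Col27a1. In late other myeloid-like cells, few cells held the fibrillar chains of the tumor, with 38 Col5a2 UMIs in 7 cells and 30 Col11a1 UMIs in 5 cells.

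**Figure D5:**
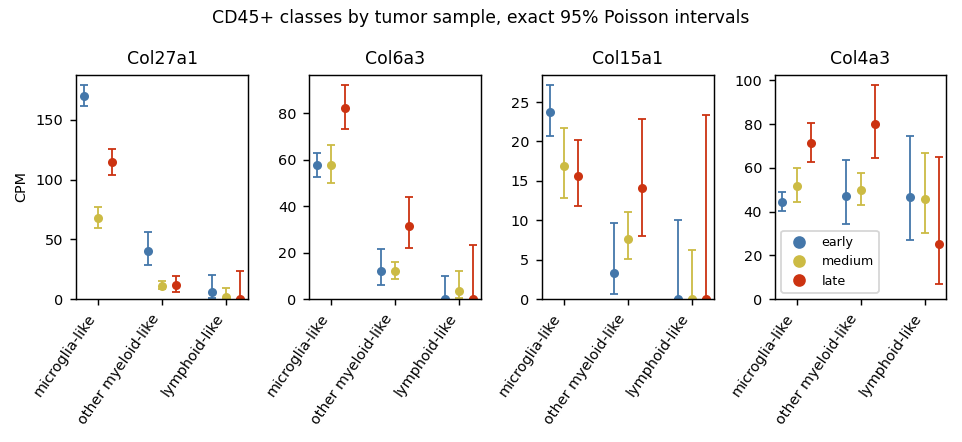
CPM of Col27a1, Col6a3, Col15a1 and Col4a3 in microglia-like, other myeloid-like and lymphoid-like cells of each tumor sample, with exact 95% Poisson intervals for counting error. Col27a1 runs from 67.6 to 170 in microglia-like cells and stays at or below 40.6 in the other classes, whereas Col4a3 lies at 44.3 to 71.2 in microglia-like and 25.3 to 46.5 in lymphoid-like cells.

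Stages were set side by side within classes without a test, since each had 1 tumor sample. A chain with at least 20 UMIs was counted as past the fold when late and early levels differed at least 2-fold and the exact 95% Poisson interval of their ratio left out 1. The minimum was set on both stages together, so a chain near 0 in 1 of them entered through the other and had to differ, and the counts are descriptions only. In fibroblast-like cells 10 of 18 such chains were higher and 0 lower in the late sample, with 9.76% of all genes higher and 7.59% lower. Col3a1 was 3.49-fold higher (2.67 to 4.61), Col1a1 2.96-fold (2.43 to 3.63), Col4a1 4.26-fold (2.36 to 8.16) and Col4a2 5.43-fold (2.19 to 16.1), whereas Col1a2 was 1.47-fold higher and not past the fold. When the cell with most UMIs of each chain was left out, 7 of the 10 stayed past the fold. Of the 106 cells of this class, 54 were at the limit of the marker rule.

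In endothelial-like cells 5 chains had enough UMIs, Col18a1 and Col1a2 through the late sample alone (10.3% of all genes were higher and 7.19% lower). Col4a1 was 2.73-fold (2.16 to 3.46) and Col4a2 2.79-fold (2.14 to 3.66) higher in late than in early cells, and without the cell with most UMIs 2.12-fold and 2.00-fold. Col18a1 went from 1 to 34 UMIs and Col1a2 from 1 to 41, of which 35 were in 1 cell. Col4a3 was 1.46-fold higher, not past the fold. Without the first run only 2 chains had enough UMIs, and both were past it.

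In oligodendrocyte-like cells 4 of 15 chains were higher and 1 lower in the late sample (4.49% and 3.15% of all genes). The higher ones were Col27a1 (5.61-fold, 2.67 to 12.9), Col16a1 (3.41-fold, 1.83 to 6.57), Col22a1 and Col4a3, and Col6a2 was lower (0.243-fold, 0.0931 to 0.535). Pooled over the samples, Col16a1 and Col6a2 lay above the lymphoid-like level in this class, and Col27a1, Col22a1 and Col4a3 did not. Col22a1 fell to 1.875-fold, not past the fold, without the cell with most UMIs. In choroid plexus-like cells 2 of 8 were higher and 1 lower (9.43% and 3.94%), and Col9a3 was not among them. The 2 higher chains, Col18a1 and Col4a4, fell to 1.82-fold and 1.70-fold, not past the fold, without the cell with most UMIs of each. Without the first run 0 of 8 choroid plexus chains were past the fold, and without the second 5 of 8 were higher. In microglia-like cells 3 of 14 were higher and 1 lower (5.24% and 3.02%), and without the third run 7 had enough UMIs, none of them past the fold. The higher chains were Col4a1, Col14a1 and Col18a1, and the lower one was Col19a1. Pooled over the samples, none of them lay above the lymphoid-like level in microglia-like cells, so these changes are not read as expression there. In oligodendrocyte-like cells 2 of 12 were higher without the first run. The largest change in microglia-like cells was that of Col4a1, from 4 to 36 UMIs (22.3-fold, 8.0 to 86.3), while Col27a1 (0.672-fold) and Col6a3 (1.43-fold) were not past the fold. Col4a1, Col11a1 and Col18a1 were high in tumor cells, which were rare in the early sample, and the part of RNA from tumor cells in the stage values was not tested.

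Genes that modify, fold, export, trim and cross-link collagen, its receptors and its partners in the basement membrane were examined as 6 lists. Counts of called genes are read against the share of all genes called in the same comparison. In Lgals1-type against Pdgfra-type tumor cells, 10 of 13 basement membrane partners tested were higher (4.07% of all genes were). The largest rises were those of Nid1 (nidogen, 96.1 ± 45.6 against 3.15 ± 1.66 CPM, SD, n = 2; log2 fold change 4.93, adjusted p 4.62e-05) and of the laminin chains Lama2 (4.53) and Lama5 (3.46). Their median log2 fold change was 2.82, against -0.01 for all genes. Of the other lists, 5 of 14 prolyl and lysyl modification genes (P3h3 2.27, Crtap 2.01 and P3h1 1.96 leading), 2 of 9 chaperone and export genes, 2 of 8 receptors, 2 of 6 cross-linking genes and 2 of 4 propeptide-processing genes were higher. Serpinh1, the collagen-specific chaperone HSP47, had 1211 ± 482 against 163 ± 15.3 CPM (SD, n = 2; log2 fold change 2.97, adjusted p 0.00327), and the chaperone Fkbp10 had a log2 fold change of 3.44. The only gene of the lists that was lower was Pcolce2, an enhancer of procollagen trimming, with 6.54 ± 5.67 against 44.9 ± 13 (-3.14, adjusted p 0.00186), while its relative Pcolce was higher (4.52, adjusted p 0.000186). The receptors Mrc2 (3.75) and Itga1 (2.00), the cross-linking genes Loxl1 (2.99) and Tgm2 (2.40) and the proteinase Bmp1 (2.10) were the others named by size.

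In fibroblast-like against endothelial-like cells, where 5.56% of all genes were higher and 5.92% lower, the cross-linking list had 3 of 6 genes higher, namely Loxl1 (5.74), Lox (4.49) and Loxl2 (2.46). Lox, a lysyl oxidase, had 346 ± 115 against 15.7 ± 15.2 CPM (SD, n = 3; adjusted p 1.43e-05). Pcolce had 576 ± 204 against 0 in each sample, at least 119-fold higher by the floor of 3 counts, and with Adamts2 (5.44) made 2 of 4 processing genes higher. Among 8 receptors 4 were higher, led by Ddr1 (5.59), Mrc2 (4.95) and Itga11 (at least 17.8-fold), and 2 lower, Adgrg1 and Itga1 (-1.79). Basement membrane partners were split, with Lama2, Lamc3 and Nid1 higher and Lama5 and Agrn (-1.90) lower of 13 tested. Of 14 modification genes P3h3 (4.15), P3h1 (2.84) and P4ha1 (1.62) were higher and Colgalt2 (-4.95) lower, and of 9 chaperone and export genes Creb3l1 (3.10) was higher.

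In mural-like against endothelial-like cells, where 2.53% of all genes were higher and 5.09% lower, 5 of 13 basement membrane partners were higher, led by Lama2 (5.29), Lamc3 (4.88) and Nid1 (2.14). Of 8 receptors Mrc2 (2.67) and Itga1 (1.22) were higher and Adgrg1 lower, of 6 cross-linking genes Loxl2 (2.84) was higher and Tgm2 (-3.43) lower, and of 14 modification genes P3h3 (3.32) was higher and Crtap (-2.19) lower. Of 4 processing genes Pcolce and Adamts2 were higher. Between CD45+ and CD45- cells, with 20.4% of all genes higher and 25.7% lower, 10 of 13 basement membrane partners (Lama5 -3.85, Lama2 -3.80 and Nid1 -3.24 leading) were lower and Sparc (1.57) and Lamb3 (1.39) higher in CD45+ cells, and 4 of 5 processing genes (Pcolce2 -4.43, Pcolce -3.34 and Adamts2 -2.10 leading) were lower. Chaperones had 4 of 9 lower, led by Fkbp10 (-3.57), Serpinh1 (-3.44) and Sec23a (-1.43). Modification genes had 4 higher and 5 lower of 15, cross-linking genes 2 higher and 2 lower (Pxdn -4.57 and Loxl1 -3.24) of 6 and receptors 3 higher and 4 lower of 10, shares closer to those of all genes. Higher ones included Lair1, an inhibitory collagen receptor of leukocytes, at 4.84, the transglutaminase Tgm2 at 3.67 and the prolyl hydroxylases P3h2 at 2.01 and P4ha1 at 1.32, and the lower ones P3h4 (-3.98), Colgalt2 (-3.88), Plod2 (-2.96), Itga11 (-5.24), Ddr1 (-4.17) and Mrc2 (-2.82).

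In other myeloid-like against microglia-like cells, where 4.2% of all genes were higher and 3.36% lower, Sparc, a matrix protein that binds collagen, was lower at 392 ± 205 against 3961 ± 1000 CPM (SD, n = 3; log2 fold change -3.42, adjusted p 3.05e-11). The collagen receptors Adgrg1 (-4.15) and Lair1 (-1.32) were lower as well and Ddr1 was higher (2.59), Lamb2 (-2.06) and P4ha1 (-0.91) were lower and Lama4 (3.45) higher. These were 3 of 13 basement membrane partners, 3 of 8 receptors and 1 of 14 modification genes.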

How the data were processed

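The deposited table holds counts of UMIs per gene and cell from inDrop single-cell RNA-seq of 3 sequencing runs, with the run and library barcode in each cell's name, and a deposited list (unit other, labels only) gives the sort and tumor stage of each library. Per the methods, the authors assigned reads with RapMap in bcbio-nextgen to the GRCm38 transcriptome of Ensembl with the transgenes added, then removed empty droplets, ambient RNA and doublets, and whether the last 2 steps came before deposit was not stated. GRCm38 coordinates are those of the reference annotation.

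Of 20811 deposited cells, 17894 had at least 500 UMIs and 500 genes and no more than 20% of UMIs from mitochondria, as in the study. Scrublet (expected rate 6%) called 139 of 17786 cells in libraries of at least 100 cells as doublets, 0.782%, and 17755 cells were analysed. A cell got a class when at least 3 markers of it were detected and at least 2 more than of any other class. The marker lists hold no collagen. Myeloid-like cells of the CD45+ sort were divided at 3 microglia markers. Clusters (scanpy 1.11.5, 2000 variable genes without collagens, 40 components, 20 neighbors, resolution 1) gave 28 groups and were used for checks.

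UMIs were summed per tumor sample and arm, with at least 10 cells for a sum. edgeR 4.0.16 (R 4.3.3) fitted a quasi-likelihood model with TMM factors and the tumor sample as a block, on 6 sums for the sorts (TMM factors 0.834 to 1.21, 2 residual degrees of freedom) and on 39 sums for all classes (0.638 to 1.53, 23 degrees of freedom). Tests were two-sided, with Benjamini-Hochberg adjustment over all genes tested and a threshold of 0.05. Both arms of a pair came from the same tumor sample, and the deviations of paired sorts from their means correlated at 0.384, 0.28 and 0.321. P-values take their spread from what the fit leaves after the tumor sample block, and the 3 tumor samples also differ in stage. For classes this spread was estimated jointly over all 39 sums. The tumor types had 2 samples each, and a fit of them alone left 1 residual degree of freedom. Exact Poisson and binomial 95% intervals and floors of 3 counts cover counting error only. The fits were run on simulated counts before use. These had no stage effect, and differences between arms were added only to genes with higher counts, so they do not speak for chains at low levels.

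All 44 chains were accounted for. Values in every tumor sample were printed for the 12 chains with most CD45- UMIs and for the called chains with the 5 largest log2 fold changes per direction in a class comparison. They were also printed for chains above the lymphoid-like level, with at least 20 UMIs, in a class where the others of their family did not meet both limits. Of the lists for prolyl and lysyl modification, chaperones and export, propeptide processing, cross-linking, receptors and basement membrane partners, called genes with the 3 largest changes per direction were named. Some items of the genotype and of the genes that lead clusters are not reported here. The members and lists were chosen with earlier results of these data known. Alternatives were DESeq2 1.42.0, no TMM factors, no count filter, no replicate block, leaving out tumor samples or runs, other doublet, cell and class rules, and fits of only 2 classes.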

Additional observations from a re-analysis of the deposited data

Results flagged for a closer look

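Collagen was found in 3 groups of cells that were part of the sums of the sorts but entered no comparison between classes, each above the lymphoid-like level of 91.6 CPM (exact 95% interval 74.7 to 111). The 168 CD45+ cells with at least 2 human EGFR UMIs and no myeloid or lymphoid class, 130 of them from the medium tumor sample, had 1441 collagen UMIs, or 2279 CPM (2163 to 2400). Their leading chains included Col4a1 (380 CPM), Col5a2 (206), Col18a1 (176), Col11a1 (163) and Col1a2 (69.6), against 0.898, 0, 0, 0 and 2.69 in lymphoid-like cells.

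The 589 CD45- cells that met the rule of no class had a collagen level of 3650 CPM (3561 to 3741), with 2168, 4244 and 4416 in the early, medium and late sample, and held 13.98% of the collagen UMIs of their sort. The 312 tumor cells with equal Pdgfra and Lgals1 UMIs had 2512 (2435 to 2590), which lay between the levels of the Pdgfra-type and Lgals1-type cells of the medium and late samples.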

How the results depend on the processing

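Over all settings, 248 alternative counts of called chains stayed within 1.5 times the reported count and 36 did not. The 248 include counts that were 0 in both fits and settings that left the cells of a class nearly unchanged, so they are not independent checks. No shares of all genes are given for the alternative fits between sorts and classes. Between the sorts, leaving out 1 tumor sample gave 1 to 2 higher chains, no TMM factors gave 1 and keeping every gene with at least 1 UMI gave 0, where Col27a1 had an adjusted p of 0.110 and Col6a3 of 0.141. Lower chains numbered 24 to 28 over runs, DESeq2, no TMM factors and every gene. Without the replicate block 2 were higher and 18 lower between the sorts, and 12 higher and 2 lower between tumor types, where Col5a2 (adjusted p 0.108) and Col18a1 (0.0709) were lost. With only the tumor types in the fit Col11a1 (adjusted p 0.00443) and Col16a1 (0.00441) passed. Without run 2, Col1a2 (0.0799) and Col6a1 (0.0538) were lost between tumor types. The block moved the counts of the other comparisons by at most 1.

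Leaving out 1 tumor sample gave 7 to 14 higher and 0 to 2 lower chains in Lgals1-type cells, 2 to 8 higher in mural-like, and 0 to 5 higher and 1 to 2 lower in other myeloid-like cells. Col1a1 in Lgals1-type cells ranged from -0.38 to 1.01 over these fits and was -0.12 without run 3. Mural-like cells had 3 higher chains with only those classes in the fit, 5 with the top 5% of doublet scores removed, 3 without run 1, where Col5a1 was -3.85 (adjusted p 0.829), and 4 without run 2. In other myeloid-like cells 2 were higher by DESeq2, 1 by classes from clusters, 1 with every deposited cell, 5 with every gene, 2 with only those classes, 2 without run 1 and 1 without run 2. There 2 were lower with every gene, with only those classes, without run 1 and without run 2. Fibroblast-like cells had 1 lower chain with every gene.

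Of the stage counts, higher chains went to 0 without run 1 and 5 without run 2 in choroid plexus-like cells, to 2 of 4 with the top 5% of doublet scores removed and 2 of 2 without run 1 in endothelial-like, to 0 without run 3 in microglia-like and to 2 without run 1 in oligodendrocyte-like cells. Lower chains went to 0 without run 1 in choroid plexus-like cells, and to 0 without run 2 and 0 without run 3 in microglia-like cells. Settings chosen after seeing the data gave 1 higher chain with the myeloid-like cells grouped by clusters, 0 in choroid plexus-like cells without the cell with most UMIs of each chain, and 2 higher and 27 lower between the sorts without 198 CD45+ cells with human EGFR UMIs. The cause of these changes was not tested. Chains under 20 UMIs in both stages, and differences within the Poisson intervals, could not be resolved at this depth.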
